A study of Mus musculus with 6 samples.

Results

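The 7 genes described here encode the 6 chains of type IV collagen (Col4a1 to Col4a6) and type VII collagen (Col7a1). They were taken from the deposited gene count table by symbol, and all 7 of 7 were found among its 45513 Ensembl identifiers. RNA came from keratinocytes of mouse skin, with 3 mice in each group, and was sequenced as paired 100-base reads. The 3 knockout (KO) mice were Lama3flox/flox/K14-CreERT, labelled LAMA3-deficient, with loxP sites around exons 50 to 53 of Lama3. Per the study's design text, the 3 control mice were Lama3wt/flox / K14-CreERT and thus carried the same Cre and 1 floxed allele, whereas their genotype label reads wild type. All mice were on a C57BL/6 background, and Cre, fused to a mutated estrogen receptor domain, was activated by chow with 400 mg of tamoxifen citrate per kg. The keratin 14 promoter limits Cre to basal keratinocytes and their progeny, so other cells of the skin keep Lama3. Neither age nor time on tamoxifen is given in the labels used here.

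Type IV collagen is the network-forming collagen of every basement membrane. Its chains fold into trimers of fixed makeup. The Col4a1 and Col4a2 chains form the trimer found in nearly all tissues, the Col4a3, Col4a4 and Col4a5 chains form the trimer of the kidney glomerulus, lung and inner ear, and the Col4a5 and Col4a6 chains form a trimer of the epidermal and smooth muscle basement membranes. Each pair of genes lies head to head on its chromosome. Type VII collagen is made by keratinocytes and fibroblasts and builds the anchoring fibrils, which bind the Lama3-containing laminin of the basement membrane and loop into the dermis. Its loss in human patients causes dystrophic epidermolysis bullosa, and loss of that laminin causes the junctional form.

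The libraries held 20126395 to 28473479 counts each. The level of Lama3 over the whole gene was 97.3, 98.9 and 79.2 CPM (counts scaled to library size) in the KO libraries. It was 141, 142 and 114 CPM in the controls, so every KO library lay below every control. The KO libraries also lay wholly below the controls for 26.5% of all genes tested, so this is a weak check of the labels. Whole-gene counts do not measure the floxed exons on their own, and loss of those exons was not tested. By Xist and Ddx3y counts, KO 1, KO 2 and control 1 came from females, and KO 3, control 2 and control 3 from males. The basal keratinocyte keratin Krt5 was at 6312.6 to 8803 CPM in KO libraries and 6988.2 to 9664.2 CPM in controls, and Krt14 at 4069.5 to 5290.5 CPM in KO libraries and 3706.7 to 4723.4 CPM in controls.

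The genomic arrangement of the pairs is given first, because the head-to-head genes are read out side by side below. In the GRCm38 annotation (GENCODE M21), Col4a4 (chromosome 1, 82448423 to 82586849, minus strand) starts 72 bases from Col4a3 (82586921 to 82722059, plus strand). Col4a1 (chromosome 8, 11198423 to 11312826, minus strand) and Col4a2 (11312805 to 11449287, plus strand) overlap by 22 bases at their starts. On the X chromosome, the starts of Col4a6 (141165403 to 141474076, minus strand) and Col4a5 (141475385 to 141689234, plus strand) are 1309 bases apart. Col7a1 lies alone on chromosome 9 (108953586 to 108984875, plus strand), and its longest transcript has 119 exons. Exons shared with other genes were few. The most was 563 bases of Col4a3 exons (5.65%) lying opposite the noncoding gene C430014B12Rik, which had 18 to 29 counts in KO libraries and 14 to 22 in controls.

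RefSeq promoter windows (GRCm38.p6, from 250 bases before to 50 bases after a start) were matched by symbol for 6 of the 7 genes, all but Col4a3. Of these, 3 are shown 5′ to 3′ on the strand of the named gene. They are the window of Col4a4, which also holds the start of Col4a3 (chr1:82586800-82587099, minus strand), that of Col7a1 (chr9:108953336-108953635, plus strand), and that of Col4a2, which also holds the start of Col4a1 (chr8:11312555-11312854, plus strand). The first belongs to the pair with the highest folds among the 7 genes, the second to the other gene that rose, and the third is a paired start whose genes were not called. Capitals mark GC boxes.
Col4a4: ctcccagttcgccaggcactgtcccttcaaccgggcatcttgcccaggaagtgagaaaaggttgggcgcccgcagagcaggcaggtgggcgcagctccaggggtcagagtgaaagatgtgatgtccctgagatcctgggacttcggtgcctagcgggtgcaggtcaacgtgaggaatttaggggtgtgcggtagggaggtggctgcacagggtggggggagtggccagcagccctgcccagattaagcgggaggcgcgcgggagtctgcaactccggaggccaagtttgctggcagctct
Col7a1: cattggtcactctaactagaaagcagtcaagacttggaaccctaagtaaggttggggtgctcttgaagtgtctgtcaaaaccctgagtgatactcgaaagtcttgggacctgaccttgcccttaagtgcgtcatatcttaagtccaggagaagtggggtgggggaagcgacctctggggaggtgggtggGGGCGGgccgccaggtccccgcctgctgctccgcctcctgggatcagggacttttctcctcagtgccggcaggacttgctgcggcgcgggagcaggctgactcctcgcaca
Col4a2: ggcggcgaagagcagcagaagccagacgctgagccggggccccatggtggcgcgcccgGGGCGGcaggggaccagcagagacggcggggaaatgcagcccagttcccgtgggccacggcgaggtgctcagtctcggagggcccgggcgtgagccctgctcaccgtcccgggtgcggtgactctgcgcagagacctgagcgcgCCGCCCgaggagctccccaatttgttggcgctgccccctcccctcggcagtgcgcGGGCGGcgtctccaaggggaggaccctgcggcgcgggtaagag

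The windows were 63.3% G and C for Col4a4, 58.7% for Col7a1 and 73.7% for Col4a2, against a median of 52.7% over all 32851 windows of the table. The GC box (GGGCGG on either strand) occurs in 35.7% of all windows. It stood 0 times in the Col4a4 window, 1 time in that of Col7a1 and 3 times in that of Col4a2. The windows of Col4a1, Col4a5 and Col4a6, not shown here and of genes not called, held 1 GC box each, as did that of Col7a1. They were 74.0%, 52.7% and 48.3% G and C, so not every window lay above the median. The CCAAT box (CCAAT, 37.4% of all windows) stood 1 time each in the Col7a1 and Col4a2 windows and not in that of Col4a4. Among the windows not shown, it stood 1 time each in those of Col4a1 and Col4a5 and not in that of Col4a6. The TATA box (TATAAA, 13.6% of all windows), the AP-1 motif (TGANTCA, 7.81%), the Smad box (GTCTAGAC, 0.213%) and the TEAD motif (GGAATG, 14.7%) were searched on both strands, with no overlap between the motifs found. None stood in the 3 windows shown, and the Col4a6 window held 1 TEAD motif. These are matches of letters and say nothing of binding.

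Of the 7 collagen genes, 3 rose in KO keratinocytes and none fell. Col4a3 and Col4a4 rose by the most, at 3.75-fold and 3.64-fold, and Col7a1, the most abundant of the 7, rose 1.77-fold. Col4a1, Col4a2, Col4a5 and Col4a6 were not called, and none of the 4 had an unadjusted p under 0.05. Genes count as risen or fallen where the quasi-likelihood test of edgeR gave a p under 0.05 after Benjamini-Hochberg correction across the 15513 tested genes. In this comparison 17.4% of all genes tested were called higher and 18.8% lower, 36.2% in all. DESeq2 and limma-voom also called the same 3 collagen genes higher and none lower. The KO libraries lay wholly above the controls for 3 of the 7 collagen genes and for 25.2% of all genes tested, and wholly below for none of the 7 and for 26.5% of all. The median log2 fold change was 0.35 over the 7 genes and -0.02 over all genes tested. With upper-quartile scaling instead, the split of all called genes moved to 1756 higher and 3988 lower, against 2693 and 2919 here, and the same 3 collagen genes were higher.

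**Figure D1:**
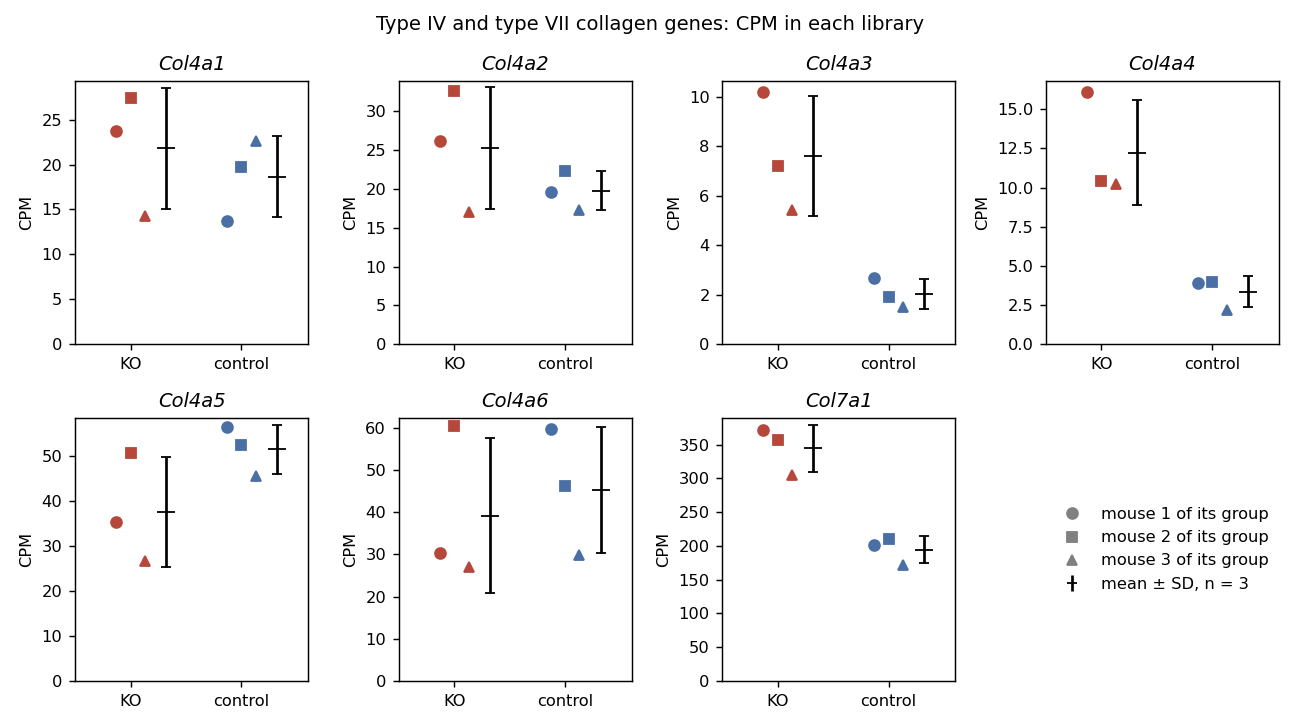
Expression of the 7 collagen genes in each library, in CPM (linear axes that start at 0). Each point is 1 mouse, with the 3 KO mice left of the 3 controls, and the bar beside each group is its mean ± SD. The groups are apart for Col4a3, Col4a4 and Col7a1 and overlap for the other 4 genes.

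Col4a3 (ENSMUSG00000079465) had 10.2, 7.19 and 5.41 CPM in KO 1, 2 and 3, against 2.67, 1.91 and 1.49 CPM in controls 1, 2 and 3. The lowest KO library was above the highest control. These values rest on 149 to 241 counts per KO library and 38 to 62 counts per control. The log2 fold change was 1.91 (SE 0.32, edgeR's adjusted p = 0.0049), or 3.75-fold between the group means. Col4a4 (ENSMUSG00000067158), whose product joins the same trimer, had 16.1, 10.4 and 10.2 CPM in the KO libraries and 3.88, 4 and 2.2 CPM in the controls. Again no KO library overlapped the controls. The log2 fold change was 1.86 (SE 0.29, edgeR's adjusted p = 0.0041), or 3.64-fold between the means. KO 1 was the highest KO library for both genes. Both calls held under all 16 alternatives, with log2 fold changes of 1.65 to 2.16 for Col4a3 and 1.63 to 2.02 for Col4a4. The third chain of their trimer, Col4a5, was not among the genes that rose.

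Col7a1 (ENSMUSG00000025650), the chain of the anchoring fibril homotrimer, had 372, 356 and 305 CPM in KO 1, 2 and 3 and 201, 210 and 172 CPM in controls 1, 2 and 3. The 3 KO libraries lay above every control, and the coefficient of variation was 10.1% among KO libraries and 10.3% among controls, the narrowest pair among the 7 genes. The log2 fold change was 0.82 (SE 0.14, edgeR's adjusted p = 0.00563), or 1.77-fold between the means. The call held under all 16 alternatives. With GC and exon length offsets, added after the data were seen, the log2 fold change was 0.41 (SE 0.13, edgeR's adjusted p = 0.041). The longest Col7a1 transcript is 61.6% G and C, the highest share among the 7 genes.

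Col4a1 (ENSMUSG00000031502) was measured at 23.7, 27.4 and 14.3 CPM in KO 1, 2 and 3 and at 13.7, 19.7 and 22.6 CPM in controls 1, 2 and 3. Col4a2 (ENSMUSG00000031503) was at 26.1, 32.6 and 17 CPM in the KO libraries and 19.6, 22.3 and 17.3 CPM in the controls. For both genes KO 3 was the lowest KO library and lay among or below the controls. The log2 fold change was 0.23 (SE 0.27, edgeR's adjusted p = 0.537) for Col4a1 and 0.35 (SE 0.23, edgeR's adjusted p = 0.257) for Col4a2. Without KO 3, Col4a2 was called higher, at 0.58 (SE 0.16, edgeR's adjusted p = 0.033). With the GC and exon length offsets Col4a1 turned to -0.05 and Col4a2 was at 0.06. With 1 library left out, Col4a1 lay between 0.03 and 0.46.

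Col4a5 (ENSMUSG00000031274) was at 35.3, 50.7 and 26.7 CPM in KO 1, 2 and 3 and at 56.3, 52.5 and 45.6 CPM in controls 1, 2 and 3. Only KO 2 reached into the range of the controls. The log2 fold change was -0.45 (SE 0.22), which did not pass (edgeR's adjusted p = 0.142). Among the females, KO 1 and KO 2 were below control 1, and among the males KO 3 was below controls 2 and 3. With sex as a covariate, Col4a5 was called lower at -0.63 (SE 0.19, edgeR's adjusted p = 0.0407), and without KO 2 at -0.73 (SE 0.17, edgeR's adjusted p = 0.025). Col4a6 (ENSMUSG00000031273), its X-linked neighbour, was at 30.3, 60.4 and 26.9 CPM in the KO libraries and 59.6, 46.2 and 29.8 CPM in the controls. The highest and the lowest of the 6 libraries were both KO libraries, and the log2 fold change was -0.20 (SE 0.35, edgeR's adjusted p = 0.676). Its sign turned to 0.02 without KO 3 and to 0.05 without control 1.

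**Figure D2:**
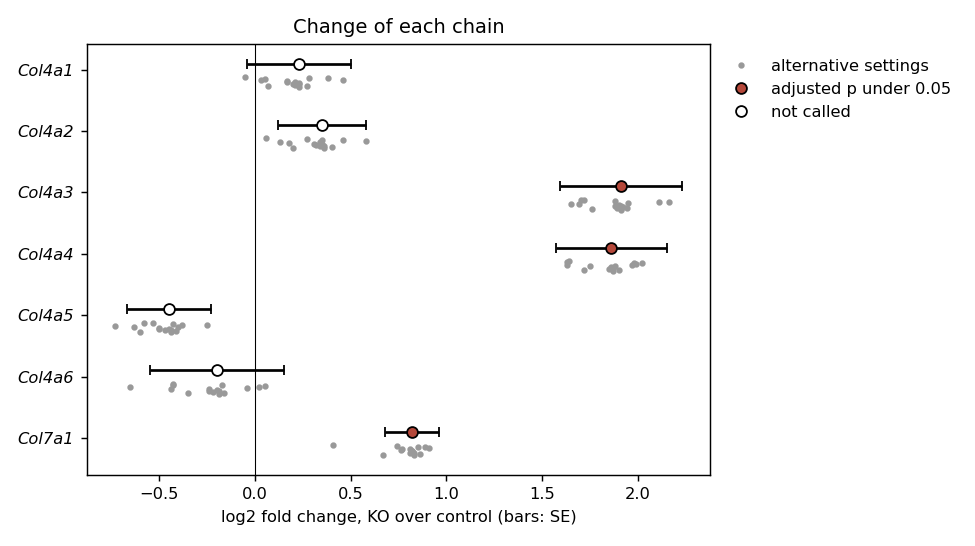
Log2 fold change of each collagen gene, KO over control. The upper circle of each row is the value with its standard error, filled where the adjusted p was under 0.05, and the small grey points below it are the 16 alternative settings, spread vertically only to be seen. Col4a3 and Col4a4 stay between 1.63 and 2.16, and Col7a1 between 0.41 and 0.91.

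To compare levels between chains, CPM were divided by the merged exon length in kilobases. On this scale Col7a1 was the highest of the 7 genes, with 33.4 ± 3.39 in KO libraries and 18.9 ± 1.95 in controls (SD, n = 3 each). Col4a5 came next, with 5.59 ± 1.81 in KO libraries and 7.66 ± 0.803 in controls, followed by Col4a6 with 4.92 ± 2.31 in KO libraries and 5.67 ± 1.87 in controls. The ranges of Col4a5 and Col4a6 overlapped in both groups. Col4a2 (3.81 ± 1.18 in KO libraries, 2.99 ± 0.379 in controls) and Col4a1 (2.92 ± 0.908 in KO libraries, 2.5 ± 0.609 in controls) also overlapped in both groups. Col4a6 and Col4a2 overlapped among the KO libraries but not among the controls. Col4a4 (1.15 ± 0.314 in KO libraries, 0.317 ± 0.0947 in controls) and Col4a3 (0.762 ± 0.242 in KO libraries, 0.203 ± 0.0599 in controls) were the lowest in both groups, apart from the 4 other type IV chains and overlapping one another. With merged exon length, the order of the 7 genes by mean was the same in both groups. With the length of the longest transcript it was not. Col4a6 (5.9) was then above Col4a5 (5.75) in KO libraries, but below it in controls (6.8 against 7.87). The genes with the highest folds were also the least abundant type IV chains in KO keratinocytes.

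As a share of the length-scaled level of all 6 type IV chains, Col4a3 and Col4a4 together made up 13.5%, 6.7% and 11.3% in KO 1, 2 and 3, against 2.98%, 2.82% and 2.16% in controls 1, 2 and 3. Col4a5 and Col4a6 made up 54.3% ± 5.6 in KO libraries and 68.5% ± 5.49 in controls, and Col4a1 and Col4a2 35.2% ± 2.51 in KO libraries and 28.8% ± 5.87 in controls (SD, n = 3 each). The X-linked pair thus held the highest share in every library. The length-scaled level of all 6 chains was 19.2 ± 6.05 in KO libraries and 19.3 ± 2.48 in controls. These shares are descriptions and were not tested. The ratio of Col7a1 to the 6 type IV chains, chosen after the values were seen and not tested, was 1.93, 1.36 and 2.22 in the KO libraries and 0.921, 1.01 and 1.01 in the controls.

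**Figure D3:**
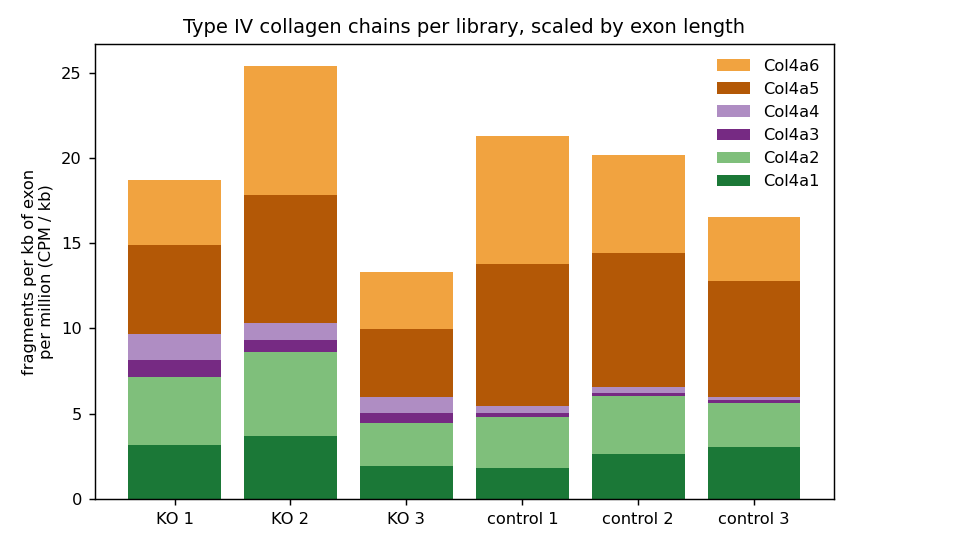
Levels of the 6 type IV collagen genes in each library, stacked, in CPM per kilobase of merged exon length. The Col4a5 and Col4a6 segments are the tallest pair in every bar, and the Col4a3 and Col4a4 segments hold 6.7% to 13.5% of the KO bars and 2.16% to 2.98% of the control bars.

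The next comparison asked whether the paired chains kept their proportions, with the log2 ratio in each library and a 2-sided exact permutation test. With 3 against 3 libraries this exact permutation test cannot go below p = 0.1, and p-values were adjusted over the 4 ratios. The ratio of Col4a4 to Col4a3 counts was 1.58, 1.45 and 1.89 in KO 1, 2 and 3 and 1.45, 2.1 and 1.47 in controls 1, 2 and 3. It overlapped between the groups, while both genes rose, and the log2 ratio differed by -0.02 (exact p = 0.8, adjusted 0.8). The ratio of Col4a2 to Col4a1 was 1.1, 1.19 and 1.19 in the KO libraries and 1.44, 1.14 and 0.768 in the controls. It too overlapped, with a difference of 0.11 on the log2 scale (exact p = 0.8, adjusted 0.8) that turned to -0.14 without control 3. The ratio of Col4a6 to Col4a5 was 0.859, 1.19 and 1.01 in the KO libraries and 1.06, 0.88 and 0.654 in the controls, a log2 difference of 0.25 (exact p = 0.5, adjusted 0.8).

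Between the pairs, the length-scaled ratio of Col4a5 and Col4a6 to Col4a1 and Col4a2 was 1.27, 1.76 and 1.64 in KO 1, 2 and 3 and 3.31, 2.26 and 1.87 in controls 1, 2 and 3. Every KO library was below every control. The log2 ratio averaged 0.62 ± 0.25 in KO libraries and 1.27 ± 0.42 in controls (SD, n = 3 each). The difference was -0.64, with the smallest p the exact permutation test allows (p = 0.1, adjusted 0.4). It lay between -0.83 and -0.41 when 1 library was left out. The corresponding ratio of Col4a3 and Col4a4 to Col4a1 and Col4a2, chosen after the values were seen and not tested, was 0.296 ± 0.0858 in KO libraries and 0.0967 ± 0.0345 in controls.

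**Figure D4:**
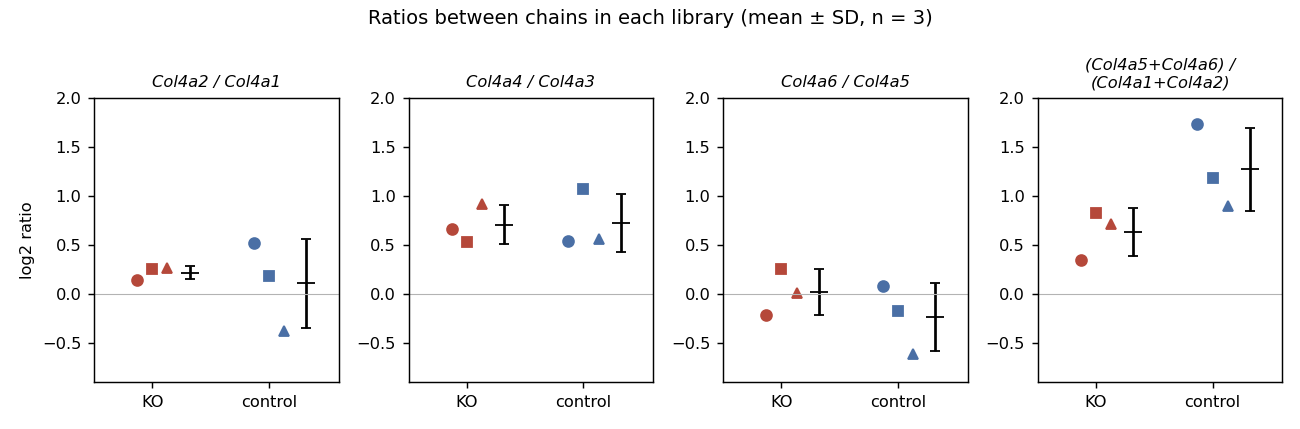
Log2 ratios between type IV collagen genes in each library, with the 3 KO mice left of the 3 controls and the mean ± SD beside each group. The 3 ratios within a gene pair overlap between the groups, and the ratio of the X-linked pair to the Col4a1 and Col4a2 pair (right, scaled by exon length) is lower in every KO library than in every control.

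Endothelial cells, pericytes, fibroblasts and Schwann cells make type IV collagen too, so markers of these cells are given beside the collagen values. In bulk RNA, fewer cells of a type and less RNA per cell cannot be told apart. The 12 endothelial markers summed to 6.47 to 9.44 CPM in KO libraries and 10.8 to 20.4 CPM in controls. None of the 5 that were tested rose and 2 fell, and Pecam1 was at 0.507 to 1.16 CPM in KO libraries and 1.38 to 1.81 CPM in controls. The endothelial cadherin Cdh5 had 0, 3 and 0 counts in the KO libraries and 3, 7 and 12 in the controls, and Emcn and Cldn5 were also at 0 in at least 1 library. The 10 fibroblast markers summed to 38.4 to 48.2 CPM in KO libraries and 31.6 to 108 CPM in controls, with 3 of 9 tested lower and none higher. Among them Col1a1 was at 9.64 to 12.8 CPM in KO libraries and 4.22 to 20.7 CPM in controls, and Col1a2 at 12.3 to 14.9 CPM in KO libraries and 9.99 to 23.2 CPM in controls. Over the 9 tested fibroblast markers the log2 fold changes lay between -3.37 and -0.18, with a median of -1.56. Those called lower were Dcn, Lum and Dpt.

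The 10 pericyte and smooth muscle markers summed to 176 to 259 CPM in KO libraries and 117 to 161 CPM in controls. Notch3, also a receptor of keratinocytes, held most of this sum, at 124 to 168 CPM in KO libraries and 78.5 to 105 CPM in controls. Acta2, smooth muscle actin, also rose (log2 fold change 3.49, SE 0.29, edgeR's adjusted p = 0.000663), at 12.7 to 22.3 CPM in KO libraries and 1.16 to 1.95 CPM in controls. In all, 2 of the 6 tested were higher (Notch3 and Acta2) and 1 was lower (Rgs5). The call of Acta2 held under all 16 alternatives, and that of Notch3 was lost in 6. Cspg4, the second largest part of the sum, was not called, at 67.7, 30.6 and 34.6 CPM in the KO libraries and 35.5, 50.2 and 40.4 CPM in the controls. Rgs5 was at 0.14 to 0.296 CPM in KO libraries and 0.474 to 0.904 CPM in controls, and Pdgfrb at 0.296 to 0.489 CPM in KO libraries and 0.345 to 0.629 CPM in controls, and Kcnj8 and Abcc9 were at 0 in at least 1 library. The 7 Schwann cell markers summed to 7.36 to 10.6 CPM in KO libraries and 9.99 to 15.9 CPM in controls. Of the 7, none was called higher and 2 were called lower, and Cdh19 and S100b were at 0 in at least 1 library. The list was mixed, as Prx was at 4.21 to 4.27 CPM in KO libraries and 2.2 to 3.14 CPM in controls. Prx was not called (0.64, SE 0.22, edgeR's adjusted p = 0.0571).

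Several other lists differed between the groups in the same libraries. The summed markers of the suprabasal layers, led by Krt1 and Krt10, were at 23498.8 to 38042.6 CPM in KO libraries and 8443.2 to 12385.7 CPM in controls, and all 4 tested were called higher. The bulge and outer root sheath markers summed to 3243.2 to 4877.4 CPM in KO libraries and 2218.9 to 2517.7 CPM in controls, of which Krt17 alone held 2854.5 to 4335 CPM in KO libraries and 1827.7 to 1945.8 CPM in controls. Of these 7 markers, 2 were called higher (Krt17 and Nfatc1). The 5 not called (Lgr5, Cd34, Lhx2, Sox9 and Fgf18) each overlapped between the groups. The sums were lower in every KO library for hair shaft and inner root sheath markers (37.5 to 39.7 CPM, against 111 to 361 CPM in controls), sebaceous gland markers (477 to 925 CPM, against 1089.5 to 1520.1 CPM in controls), melanocyte markers (11 to 21.3 CPM, against 50.2 to 179 CPM in controls) and T cell markers (37.9 to 48.7 CPM, against 96.3 to 217 CPM in controls). The sums overlapped between the groups for basal keratinocyte markers (15905.3 to 21638 CPM in KO libraries, 16817.8 to 23206.7 CPM in controls), macrophage and Langerhans cell markers (274 to 372 CPM in KO libraries, 255 to 664 CPM in controls), adipocyte markers (0.419 to 7.33 CPM in KO libraries, 3.81 to 7.77 CPM in controls) and skeletal muscle markers (3.72 to 10.1 CPM in KO libraries, 6.16 to 8.96 CPM in controls). Overlapping sums can hide called genes. Of the 7 basal keratinocyte markers, Itgb4 was higher (0.90, SE 0.22, edgeR's adjusted p = 0.0166) and Krt15 lower (-0.93, SE 0.29, edgeR's adjusted p = 0.0386). Of the 8 macrophage and Langerhans cell markers, C1qa (2.06, SE 0.36) and C1qb (1.66, SE 0.38) were higher and Cd207 lower (-1.68, SE 0.49). In each of these 2 lists, 5 genes were not called. The part of any of these differences in the collagen values was not tested.

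The enzymes and chaperones that modify, fold and export collagen chains moved in both directions. Among the 19 listed, 4 were higher, 3 lower and 12 below the threshold, with a median log2 fold change of 0.01. All genes tested also moved in both directions, with 17.4% called higher and 18.8% lower, so a split is not particular to this list. Serpinh1, the collagen chaperone of the endoplasmic reticulum, fell to 52.5, 37.7 and 51 CPM in KO 1, 2 and 3, against 75.5, 99.1 and 97.6 CPM in controls 1, 2 and 3 (log2 fold change -0.95, SE 0.17, edgeR's adjusted p = 0.00575). P4ha3, a catalytic subunit of prolyl 4-hydroxylase, had 41, 68 and 66 counts in the KO libraries and 0, 0 and 4 in the controls. It rose (edgeR's adjusted p = 0.00294), and its fitted log2 fold change of 5.14 rests on those 4 counts. The lysyl hydroxylase and glycosyltransferase gene Plod3 (0.46, SE 0.10) and the export receptor genes Mia3 (0.41, SE 0.11) and Mia2 (0.40, SE 0.12) were the others that rose. The cyclophilin gene Ppib (-0.43, SE 0.14) and the prolyl 3-hydroxylase family gene P3h3 (-0.66, SE 0.20) were the others that fell. Without KO 1 or without control 3 the number that rose was 2, and without KO 1, KO 2 or any 1 control the number that fell was 1. The calls of Serpinh1 and P4ha3 held under all 16 alternatives, whereas that of Ppib was lost in 9, of P3h3 in 8, of Mia2 in 7, of Mia3 in 5 and of Plod3 in 1. The main prolyl 4-hydroxylase subunit genes P4ha1 (-0.06, SE 0.17) and P4hb (0.01, SE 0.15) were not called.

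Genes that cross-link collagen or process it outside the cell also split. So did all genes tested, with 17.4% called higher and 18.8% lower. Of 9 tested of 12 listed, 2 rose, 2 fell and 5 were not called, with a median of -0.58. Pxdn, peroxidasin, which forms the sulfilimine cross-links between type IV collagen trimers, fell to 6, 5.24 and 5.7 CPM in KO 1, 2 and 3, against 13.9, 18.1 and 18.1 CPM in controls 1, 2 and 3 (log2 fold change -1.57, SE 0.17, edgeR's adjusted p = 0.00138). Tgm2, a transglutaminase, fell by 1.46 on the log2 scale (SE 0.24, edgeR's adjusted p = 0.00473), at 1.13 to 1.19 CPM in KO libraries and 2.91 to 3.62 CPM in controls. The lysyl oxidase-like gene Loxl4 (1.55, SE 0.30) and the tolloid-like protease gene Tll1 (1.47, SE 0.25) rose. Bmp1, which trims the C-terminal end of procollagen VII, was not called (0.27, SE 0.12, edgeR's adjusted p = 0.114). The calls of Pxdn and Tgm2 held under all 16 alternatives, and each alternative counted 2 genes higher in this list.

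Among 11 partners of type IV collagen in basement membranes, 1 rose, 2 fell and 8 were not called, with a median of -0.13. The shares over all genes tested were 17.4% higher and 18.8% lower, so these counts are not particular to this list. Smoc2, a calcium-binding matrix protein, fell to 75.5, 82.8 and 35.2 CPM in KO 1, 2 and 3, against 250, 149 and 103 CPM in controls 1, 2 and 3 (log2 fold change -1.37, SE 0.40, edgeR's adjusted p = 0.0345). Col15a1, a collagen of basement membrane zones, had 3, 0 and 8 counts in the KO libraries and 15, 44 and 88 in the controls (edgeR's adjusted p = 0.0151). The matrix gene Tinagl1 rose by 0.84 (SE 0.26), a call lost in 8 of 16 alternatives. The linker genes Nid1 (-1.56, SE 0.60) and Hspg2 (-0.09, SE 0.29) were not called. Smoc2 lost its call without KO 1, KO 2, KO 3, control 1 or control 2 (edgeR's adjusted p between 0.0556 and 0.0837) and with no filter on low counts (0.161), and Col15a1 without KO 1 (0.053). Without KO 1, none of the 11 genes was called lower, and none was called higher without KO 1, control 1 or control 3.

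The collagen receptor genes that were called were all higher. Among 10 receptor genes, 3 were higher, 0 lower and 7 below the threshold. Their log2 fold changes had a median of 0.37, and the lowest was -0.05. Of all genes tested, 17.4% were called higher and 18.8% lower. Whether the receptor list differed from all genes as a set was not tested. Ddr2, a receptor tyrosine kinase for fibrillar collagen best known in mesenchymal cells, rose to 204, 167 and 176 CPM in KO 1, 2 and 3, against 4.13, 8.15 and 8.14 CPM in controls 1, 2 and 3 (log2 fold change 4.74, SE 0.27, edgeR's adjusted p = 0.000238). Adgrg6, an adhesion G protein-coupled receptor that binds type IV collagen, rose to 123, 193 and 141 CPM in the KO libraries, against 73.4, 59.8 and 79.2 CPM in the controls (1.11, SE 0.19, edgeR's adjusted p = 0.00524). Ddr1, the epithelial discoidin receptor, which also binds type IV collagen, rose by 0.63 (SE 0.18, edgeR's adjusted p = 0.0293). Ddr1 lost its call in 7 of 16 alternatives (edgeR's adjusted p between 0.0543 and 0.1): with upper-quartile factors, with sex as a covariate, with the GC and exon length offsets, and without KO 1, KO 2, control 1 or control 3. The integrin chain genes Itga1 (0.35, SE 0.30), Itga2 (0.38, SE 0.20) and Itgb1 (0.10, SE 0.18) were not called. The calls of Ddr2 and Adgrg6 held under all 16 alternatives. Of the fibroblast markers given above, 0 of 9 tested were higher and 3 were lower. The 6 tested pericyte and smooth muscle markers did not move together. Acta2 (3.49, SE 0.29, edgeR's adjusted p = 0.000663) and Notch3 were higher, and Rgs5 was lower (-1.57, SE 0.44). Tagln (-1.18, SE 0.52), Pdgfrb (-0.42, SE 0.40) and Cspg4 (0.07, SE 0.30) were not called. The part of mesenchymal cells in the Ddr2 values was not tested.

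Of 9 proteases that cleave type IV collagen, 7 were tested, of which 2 rose and none fell, with a median of 0.32. Over all genes tested, 17.4% were called higher and 18.8% lower. Whether the protease list differed from all genes as a set was not tested. Mmp2, gelatinase A, rose to 125, 77.7 and 96.1 CPM in KO 1, 2 and 3, against 35.1, 39.3 and 35.4 CPM in controls 1, 2 and 3 (log2 fold change 1.45, SE 0.18, edgeR's adjusted p = 0.00188). Ctsl, cathepsin L, was at 143, 181 and 102 CPM in the KO libraries and 102, 70.4 and 45.1 CPM in the controls, and rose by 0.97 (SE 0.31, edgeR's adjusted p = 0.0441). Ctsl lost its call without KO 1, KO 2, control 2 or control 3 (edgeR's adjusted p between 0.0947 and 0.127), with upper-quartile factors (0.0677) and with no filter (0.132). Mmp9, gelatinase B, was not called (0.62, SE 0.40). Without KO 1 the number that rose was 1 and without control 1 it was 3, and without control 2, 1 gene of the list was called lower.

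**Figure D5:**
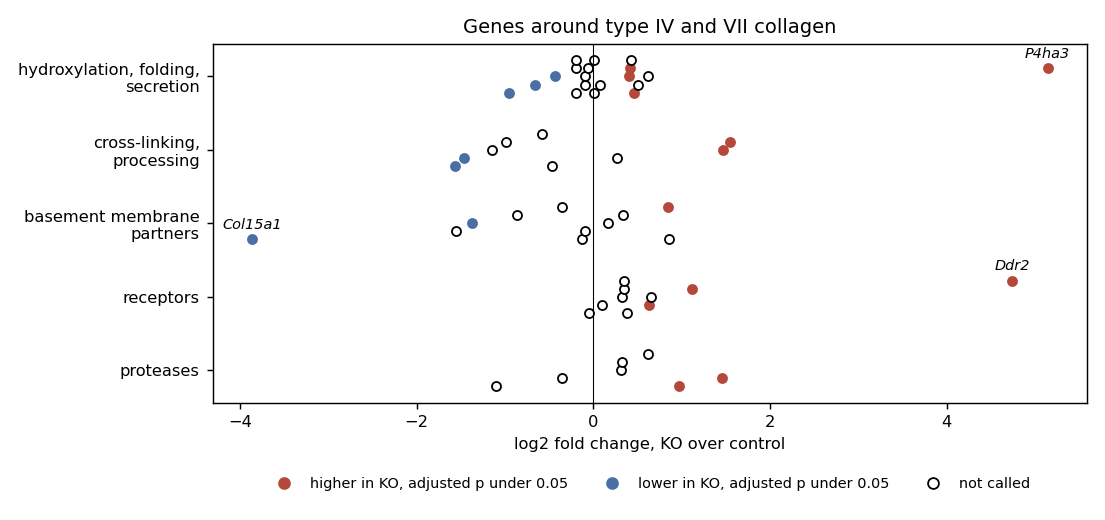
Log2 fold change, KO over control, of every tested gene on the 5 lists around type IV and VII collagen, 1 point a gene, spread vertically only to be seen. Filled points passed an adjusted p of 0.05, and genes beyond 3 on the log2 scale are named: P4ha3 and Ddr2 lie at 5.14 and 4.74, and Col15a1 at -3.86.

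Among 25 tested collagen chain genes outside the 7, counted after the data were seen, 4 rose, 4 fell and 17 were not called. Their median log2 fold change was -0.37. Over all genes tested, 17.4% were called higher and 18.8% lower. Those that rose were Col12a1 (1.16, SE 0.30), Col5a2 (0.64, SE 0.21), Col5a3 (1.66, SE 0.40) and Col8a2 (1.01, SE 0.33). Those that fell were Col14a1 (-5.93, SE 0.86), Col15a1 (-3.86, SE 0.90), Col27a1 (4.17 to 5.31 CPM in KO libraries, 6.53 to 12.6 CPM in controls) and Col6a6 (-2.44, SE 0.41). The calls of Col14a1 and Col6a6 held under every alternative that tested them. The calls of Col8a2 were lost in 9 of 16 alternatives, of Col5a2 in 8, of Col12a1 in 4, of Col27a1 in 3 and of Col5a3 and Col15a1 in 1 each, and without KO 1 none of the 25 was called higher and 2 were called lower. Without control 1, 2 were called higher and 8 lower, and with the GC and exon length offsets 2 were higher and 6 lower. The highest log2 fold changes among all tested collagen chain genes were those of Col4a3 and Col4a4.

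The genes most like each collagen gene were sought by the root mean square difference of log2 CPM over the 6 libraries, each gene centred on its own mean, among 10686 genes. Closest to Col7a1 were Tnfaip1 (0.05 on the log2 scale) and Lrp10 (0.06). Tnfaip1 was at 98 to 115 CPM in KO libraries and 56.7 to 63.5 CPM in controls, a split like that of Col7a1. Closest to Col4a3 were the retinol dehydrogenase gene Rdh1 (0.19) and Pknox2 (0.22), and closest to Col4a4 were the aquaglyceroporin gene Aqp9 (0.15) and Rdh1 (0.21). Aqp9 was at 41.7 to 49.5 CPM in KO libraries and 9.2 to 14.4 CPM in controls, so that its groups were apart as well. The distances for Col4a3 and Col4a4 were wider than those for Col7a1.

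Closest to Col4a5 were Utp14b (0.08) and Fgfr2 (0.10), of which Fgfr2 was at 129 to 240 CPM in KO libraries and 187 to 285 CPM in controls. Col4a6 was nearest to the kinase gene Wnk2 (0.08) and to Fam117a (0.09), in both of which KO 2 was the highest library as well. Col4a1 was nearest to Sfxn2 (0.11) and Lrrc8d (0.14), and Col4a2 to Cln6 (0.07) and to the membrane-bound metalloprotease gene Mmp14 (0.07). None of these 8 genes was called with all 6 libraries. Without KO 3, Sfxn2 (0.60), Lrrc8d (0.53) and Cln6 (0.58) were called higher by edgeR (adjusted p = 0.0391, 0.0351 and 0.0218), as was Col4a2. Likeness here reflects the group difference and the spread within groups of the same 6 libraries.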

How the data were processed

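Gene counts from 3 KO and 3 control keratinocyte libraries were used. The authors deposited 1 table of whole-number counts per Ensembl gene. The tools named, per the submitters' processing notes, are Cuffdiff 1.3.0, featureCounts 1.4.6 and TopHat 1.3.3, and the build is GRCm38. Their settings, the annotation release and the use of strand are not given in the sources used here, so reads of overlapping genes on opposite strands cannot be told apart. Symbols from GENCODE M21 covered 98.1% of identifiers, and identifiers without one held 0.052% to 0.118% of counts. Long or GC-rich transcripts such as these can be read unevenly between libraries, and a fit with offsets for both was added.

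Counts were tested with edgeR 4.0.16 (R 4.3.3): TMM factors, filterByExpr, robust quasi-likelihood fits, group as the only term, all 6 libraries. CPM use the TMM-scaled library size. SE is that of the log2 fold change. The test was checked on simulated data. Alternatives were other size factors (DESeq2, upper quartile), no filter or 1 CPM in 3 libraries, DESeq2 1.42.0, limma-voom (limma 3.58.1), no robust estimation, a replicate block, sex, and each library left out. Ratios used exact permutation tests (SciPy 1.17.1). The labels name separate mice, and no columns were copies. Low values are limited by their counts.

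The 7 members and all gene lists were chosen with earlier results of these data known. Of 179 list entries 178 were found. The named genes are the members, the 2 called genes with the smallest p on each of 5 pathway lists, the first 2 genes of marker lists (some are not reported here), and the 2 genes most like each member (mean of at least 5 CPM, prior count of 2). Other genes named, and the list of other collagens, were chosen after their values were seen.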

Additional observations from a re-analysis of the deposited data

Results flagged for a closer look

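Both genes of the Col4a1 and Col4a2 pair differed between KO and control mice in opposite directions in females and males. Among females, Col4a1 was at 23.7 and 27.4 CPM in KO 1 and KO 2 and at 13.7 CPM in control 1, and among males at 14.3 CPM in KO 3 and at 19.7 and 22.6 CPM in controls 2 and 3. The difference of KO from control, on the log2 scale, was 0.90 in females and -0.56 in males, a gap of 1.46. For Col4a2 it was 0.57 in females and -0.21 in males, a gap of 0.78. Among males, Col4a2 was at 17 CPM in KO 3 and at 22.3 and 17.3 CPM in controls 2 and 3, so KO 3 was close to control 3. Among females it was at 26.1 and 32.6 CPM in KO 1 and KO 2 and at 19.6 CPM in control 1. In an edgeR fit with a sex by group term, chosen after the data were seen, the term was 1.47 (SE 0.29, adjusted p = 0.671) for Col4a1 and 0.80 (SE 0.34, adjusted p = 0.671) for Col4a2, and 0 of 15513 genes passed, with 1034 at an unadjusted p under 0.05. Each sex has 1 group with a single mouse, so sex and the individual mouse cannot be told apart. Col4a3, Col4a4 and Col7a1 were higher in KO mice of both sexes, with differences of 1.65, 1.72 and 0.85 in females and 1.63, 1.75 and 0.68 in males.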

How the results depend on the processing

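The calls of Col4a3, Col4a4 and Col7a1 held under all 16 alternatives. The number of the 7 genes called lower was 1 with sex as a covariate (Col4a5 at -0.63) and 0 to 1 when 1 library was left out. With 1 library left out, the log2 fold change lay between 0.13 and 0.58 for Col4a2, -0.73 and -0.25 for Col4a5, -0.65 and 0.05 for Col4a6, -0.52 and 0.15 for Wnk2 and -0.52 and 0.20 for Fam117a. The log2 difference in the Col4a2 to Col4a1 ratio lay between -0.14 and 0.31, and that of Col4a4 to Col4a3 between -0.13 and 0.15. With GC and exon length offsets Col4a1 was at -0.05. The cause of these turns was not tested. With the length of the longest transcript, the Col7a1 level per kilobase was 37.2 in KO libraries and 21 in controls.

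Upper-quartile factors moved the median of all genes by -0.149 (log2). They gave 1756 genes higher, 2 of the modifying enzymes, 0 of the basement membrane partners and 1 of the proteases. With 1 library left out, all genes called numbered 1586 to 2754 higher and 1714 to 2771 lower (1681 and 1735 without KO 1, 1859 and 1750 without KO 2, 1586 and 1714 without control 3), modifying enzymes 2 to 4 higher and 1 to 2 lower, basement membrane partners 0 to 1 higher and 0 to 3 lower, and proteases 1 to 3 higher and 0 to 1 lower. Modifying enzymes lower numbered 1 with no filter and 1 with sex. Basement membrane partners higher numbered 2 with DESeq2, 0 with sex and 0 with the offsets, and those lower 1 with no filter and 1 with a filter of 1 CPM.

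Deviations from the group means showed no consistent pairing of the mice by replicate number. They correlated at -0.114, -0.098 and 0.419 for numbers 1, 2 and 3. Between unlike numbers the correlations lay between -0.388 (KO 2 with control 3) and 0.41 (KO 2 with control 1). With the replicate block, 2422 genes were higher and 2701 lower, Col4a3, Col4a4 and Col7a1 stood at 1.90, 1.88 and 0.82, and no call among the 7 genes changed. With 38 to 62 counts per control library, Col4a3 rests on the fewest counts of the 7 genes, while the widest SE was that of Col4a6 (0.35).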
